A study of Rattus norvegicus with 2 samples.

Results

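The regulators of G protein signalling (RGS) were examined in splenic natural killer (NK) cells of the rat as a group of 10 genes: Rgs1, Rgs2, Rgs3, Rgs5, Rgs10, Rgs12, Rgs14, Rgs16, Rgs18 and Rgs19. The members were chosen by name, with earlier results of these arrays known, and every probe set annotated to 1 of these symbols was taken. This gave 14 probe sets among the 31099 on the array, and 10 genes among 14217 with a probe set of their own. No probe set named a member together with another gene.

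NK cells are innate lymphocytes able to kill virus-infected and transformed cells. Both groups came from spleens of PVG.7b rats aged 8 to 12 weeks, 9 rats in all. Mononuclear cells were first depleted of cells bearing CD5, CD45RA, CD68, the T cell receptor (alpha-beta) or the immunoglobulin kappa chain. CD3-negative cells carrying NKR-P1A were then sorted as positive either for NKR-P1B, an inhibitory lectin-like receptor, or for Ly49s3, an activating receptor of the Ly49 family, but not for both. The purity was above 90%, per the labels, and the pooling of the rats is not stated there. Each population was measured on 1 array, so there are no replicates, no test between the populations was possible, and each difference describes these 2 arrays. The populations were bulk RNA, in which fewer cells of a type and less RNA per cell cannot be told apart.

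RGS proteins bind activated G protein alpha subunits and speed the hydrolysis of their GTP, which ends the signal of a G protein-coupled receptor. Chemokine, sphingosine 1-phosphate and many other lipid receptors signal in this way, and RGS proteins set how strongly and how long lymphocytes respond to them. In the RGS family, the R4 subfamily (here Rgs1, Rgs2, Rgs3, Rgs5, Rgs16 and Rgs18) consists mostly of small proteins with little beyond the RGS domain. The R12 subfamily holds Rgs10, Rgs12 and Rgs14, and Rgs19 belongs to the RZ subfamily.

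Signals are in arbitrary units on a linear scale. Their floor, the median of all signals, was 20.4, and values below it were set to it before a ratio was taken. As a check of the sort, Klrb1b, which encodes NKR-P1B, had 1398.6 in NKR-P1B+ cells and 29.4 in Ly49s3+ cells. Of 15 NK cell markers 14 had a probe set, and 13 of these were above the floor on both arrays. The hybridisation spikes differed by a mean log2 value of 0.02 between the arrays (SD 0.10 over 18 probe sets). The poly-A spikes, added to the RNA before labelling, were lower for NKR-P1B+ cells, with a mean log2 difference of −0.49 (SD 0.31 over 17 probe sets). Scaling to the poly-A spikes moved the median over all measured genes of the log2 difference, taken as NKR-P1B+ minus Ly49s3+, from −0.02 to 0.46, so directions below are those of the deposited scale, and members that change direction under it are named. As a measure of precision, probe sets of the same gene disagreed with an SD of 0.34 in log2 difference at mean signals under 100, 0.23 from 100 to 500 and 0.17 above 500. Variation between rats, between sorts and between arrays does not enter this spread.

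By the probe set of highest mean log2 signal of each gene, 9 of the 10 RGS genes had a signal above the floor on at least 1 array and 8 on both. The other probe set of Rgs12 was above the floor on both arrays (27.5 and 23). Rgs16 and Rgs10 were higher in the Ly49s3+ cells under every scaling tried, and Rgs1, Rgs2 and Rgs3 gave signals far above the floor in both populations with small differences toward the NKR-P1B+ cells. With each gene represented by the probe set of highest mean log2 signal, 3 of 9 measured members (Rgs16, Rgs10 and Rgs12) were at least 1.5-fold higher in Ly49s3+ cells, where 5.73% of 9114 measured genes were. On that probe set Rgs12 counted as measured only through its Ly49s3+ signal, which fixed its direction. Of the 8 members above the floor in both populations by this rule, 2 (Rgs16 and Rgs10) passed. The matching share among the 8286 genes above the floor in both is not given here. None of the 9 was at least 1.5-fold higher in NKR-P1B+ cells, where 5.11% of measured genes were, although scaling to the poly-A spikes put 3 members (Rgs1, Rgs3 and Rgs19) there. With that scaling 107 of all genes passed 1.5-fold toward Ly49s3+ cells and 3004 toward NKR-P1B+ cells, in place of 522 and 466. The other 6 measured members were within 1.5-fold, as were 89.2% of all measured genes. The median log2 difference over the 9 members was −0.18 on the deposited scale and 0.30 with poly-A scaling. Under both, 4 members lay above the median of all genes and 5 below it.

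**Figure D1:**
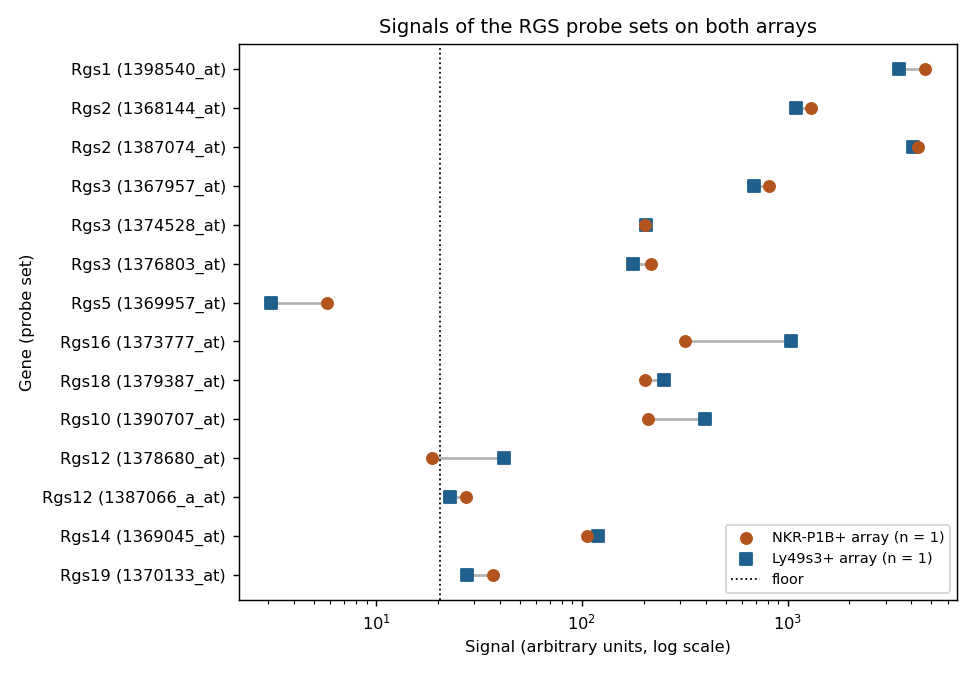
Signal of each of the 14 RGS probe sets (arbitrary units, log axis) in NKR-P1B+ cells (circles) and Ly49s3+ cells (squares), 1 array each, with the floor of 20.4 as a dotted line. The widest gaps above the floor are those of Rgs16 (316 against 1036.9) and Rgs10 (208.9 against 399.1), and Rgs5 lies below the floor on both arrays.

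Among the small R4 members, Rgs16, which limits signals through Gi and Gq and is induced in activated lymphocytes, had a signal of 316 in NKR-P1B+ cells and 1036.9 in Ly49s3+ cells. The Ly49s3+ signal was the higher one, by 3.28-fold, and both were well above the floor. The log2 difference of −1.71 was 10.1 times the probe set SD for its signal range, and it ranked 16 of 9114 genes in order from the most Ly49s3+-sided. It ranged from −1.74 to −1.23 over 8 other settings, the smallest size being that with poly-A scaling (2.34-fold). The gene has 1 probe set here, so no other probe set bears on it.

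Rgs10, a small R12 member that is abundant in immune cells and acts on Gi-type subunits, had 208.9 in NKR-P1B+ cells and 399.1 in Ly49s3+ cells. It was 1.91-fold higher in the latter, a log2 difference of −0.93 against a probe set SD of 0.23, and ranked 142 of 9114 in the same order. It was higher there under all 8 other settings, but only 1.36-fold with poly-A scaling, below the 1.5-fold limit. Relative to the median of all genes in that scaling its log2 difference was −0.90.

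The start regions of these genes are printed to show what the sequence of the 2 members measured higher in the Ly49s3+ cells holds, with Rgs1, the R4 member with the largest difference the other way, for comparison. The windows run from upstream of each gene's RefSeq start to just past it, in the GRCr8 assembly: chr13:68437870-68438169 on the plus strand for Rgs16, chr1:192418028-192418327 on the minus strand for Rgs10 and chr13:58573138-58573437 on the minus strand for Rgs1. Sequences are RefSeq's, 5′ to 3′ on the gene's strand, and capitals mark matches on either strand to the motifs searched.
Rgs16: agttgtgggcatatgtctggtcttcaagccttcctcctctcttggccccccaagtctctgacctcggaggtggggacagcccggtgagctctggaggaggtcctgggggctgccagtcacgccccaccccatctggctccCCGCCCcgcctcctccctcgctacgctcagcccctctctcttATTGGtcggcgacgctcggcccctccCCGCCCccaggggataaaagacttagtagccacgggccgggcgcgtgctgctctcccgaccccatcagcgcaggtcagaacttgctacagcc
Rgs10: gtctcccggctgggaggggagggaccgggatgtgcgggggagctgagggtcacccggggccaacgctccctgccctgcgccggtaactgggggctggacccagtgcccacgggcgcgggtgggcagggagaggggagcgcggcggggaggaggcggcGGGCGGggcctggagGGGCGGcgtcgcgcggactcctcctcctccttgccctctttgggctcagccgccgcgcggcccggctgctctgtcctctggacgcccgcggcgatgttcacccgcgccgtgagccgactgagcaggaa
Rgs1: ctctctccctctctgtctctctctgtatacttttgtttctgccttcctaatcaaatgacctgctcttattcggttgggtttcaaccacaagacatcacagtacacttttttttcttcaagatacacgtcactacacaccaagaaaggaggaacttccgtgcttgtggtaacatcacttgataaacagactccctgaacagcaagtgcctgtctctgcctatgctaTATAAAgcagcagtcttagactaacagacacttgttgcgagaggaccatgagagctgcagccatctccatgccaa

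The motifs were the cAMP response element (TGACGTCA), AP-1 (TGANTCA), the gamma interferon activation site, GAS (TTCNNNGAA), the TATA box (TATAAA), the CCAAT box (CCAAT) and the GC box (GGGCGG). All 10 members were found by symbol among 27457 such windows. The Rgs16 window holds 2 GC boxes, which 34.9% of all windows have at least once, and a CCAAT box (37.7% of all windows). The Rgs10 window holds 2 GC boxes, and its GC content of 76.3% compares with 66.3% for Rgs16, 44.7% for Rgs1 and a median of 52.3% over all windows. The Rgs1 window holds a TATA box at position −25 from the start (14.3% of all windows have one anywhere). No member's window matched the cAMP response element or the GAS (1.91% and 8.68% of all windows). AP-1, found in 7.33% of windows, matched Rgs12 only among the 10 members. A match is a description of these letters and no evidence of binding.

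Rgs1, which dampens chemokine responses and holds lymphocytes in tissue, had 4646.9 in NKR-P1B+ cells and 3469 in Ly49s3+ cells. The NKR-P1B+ signal was 1.34-fold higher, a log2 difference of 0.42, which is 2.48 times the probe set SD at this signal. Of all measured genes, 20.1% had a difference at least as large in either direction. Rgs2, which acts mainly on Gq, had 4307.7 and 4082.4 on 1 probe set and 1307.5 and 1095.4 on the other, in the same order of arrays. Both of its probe sets were slightly higher in NKR-P1B+ cells, with log2 differences of 0.08 and 0.26, and lay within 2 probe set SDs of 0. Rgs1 and Rgs2 were higher in NKR-P1B+ cells under all 8 other settings.

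Rgs3, an R4 member with longer isoforms that carry further domains, has 3 probe sets. They had 814.2 and 690.7, 216.3 and 178, and 201.9 and 205.2 on the NKR-P1B+ and Ly49s3+ arrays. The log2 differences were 0.24, 0.28 and −0.02, so its probe sets were close to each other and to 0, and the last turned to 0.46 with poly-A scaling. Rgs18, an R4 member of megakaryocytes, platelets and other blood cells, had 203.9 in NKR-P1B+ cells and 251.5 in Ly49s3+ cells. Its log2 difference of −0.30 was 1.29 times the probe set SD, and became 0.19 with poly-A scaling. Rgs5, an R4 member typical of pericytes, had 5.8 and 3.1, below the floor on both arrays, and no difference is given for it.

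The platelet markers on the array did not share 1 direction: their summed signal was 349.2 in NKR-P1B+ cells and 160.6 in Ly49s3+ cells. Of 10 such markers on the array 3 were above the floor in either population. These were Itgb3 (250 against 57), which carried the sum, Pf4 (30.9 against 26.6) and Treml1 (15.9 against 30.4), which lay on the side of Rgs18. Treml1 was above the floor only in Ly49s3+ cells, which fixed its direction. Ppbp, Gp9, Gp5, Itga2b, Tubb1, Clec1b and P2ry12 were below it on both arrays. Of 16 pericyte and stromal markers on the array 3 were above the floor, and Pdgfrb, Cspg4, Kcnj8 and Abcc9 were below it, as Rgs5 was.

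Rgs12, a large R12 protein with additional binding domains, gave opposite directions on its 2 probe sets. One of them had 18.8 in NKR-P1B+ cells and 42 in Ly49s3+ cells, at least 2.06-fold higher in the latter because the former lies below the floor. The other had 27.5 and 23, a log2 difference of 0.26 toward NKR-P1B+ cells. Its 4 signals lay between 18.8 and 42, near the floor, and the 1.5-fold count of Rgs12 was lost with a floor at the 65th percentile, with log2 of the value plus 32 and with the mean over its probe sets. The direction of Rgs12 was therefore not settled by these arrays. Rgs14, which also binds Ras-type GTPases and inactive Gi alpha subunits, had 105.6 and 120, a log2 difference of −0.18 that was 0.79 times the probe set SD and became 0.30 with poly-A scaling. Rgs19, known as GAIP, which acts on Gi-type subunits, had 37.2 and 27.8, a 1.34-fold difference toward NKR-P1B+ cells that was 1.25 times the probe set SD at this low signal. Both arrays were at the floor for Rgs19 with the floor at the 65th percentile.

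**Figure D2:**
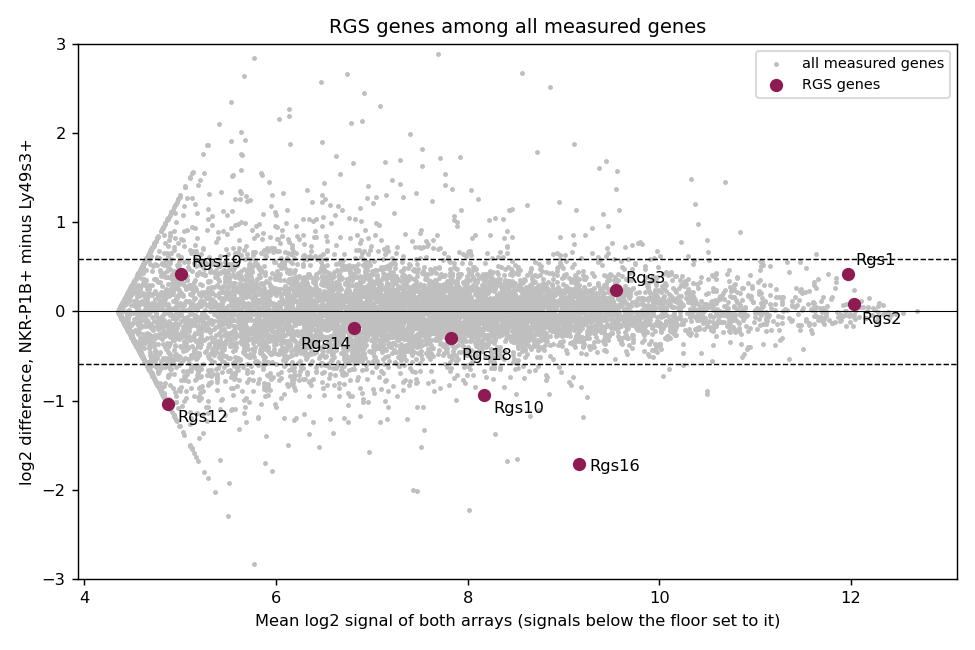
log2 difference (NKR-P1B+ minus Ly49s3+) against the mean log2 signal of both arrays for 9114 measured genes (grey) and the 9 measured RGS genes (purple), with dashed lines at 1.5-fold; 6 genes lie outside the plotted range of 3 in either direction. Rgs16 lies apart from most genes of like signal at −1.71, Rgs10 lies at −0.93, and Rgs12 lies on the edge formed by signals at the floor; with poly-A scaling the values of Rgs14 and Rgs18 turn to the other side of 0.

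By subfamily, all 3 measured R12 genes were nominally higher in Ly49s3+ cells, of which Rgs14 turned with poly-A scaling and Rgs12 had a probe set pointing the other way. Of 5 measured R4 genes 3 were nominally higher in NKR-P1B+ cells and 2 (Rgs16 and Rgs18) in Ly49s3+ cells, Rgs18 turning with poly-A scaling. Of the 9 measured members 4 (Rgs16, Rgs10, Rgs12 and Rgs1) differed by more than 2 probe set SDs, as did 12.97% of all measured genes. The value of Rgs12 rests on a signal set to the floor, whereas the SD came from probe sets above the floor on both arrays. This SD is therefore no measure of precision for Rgs12, nor for the genes within the 12.97% that had a signal set to the floor.

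The other RGS-domain genes and anchors were sparse. Of 20 listed 13 had a probe set and 5 were measured, all within 1.5-fold, with a median log2 difference of 0.05. Snx14, a sorting nexin with an RGS-like domain, had 473.4 in NKR-P1B+ cells and 435.2 in Ly49s3+ cells, and the kinase anchor Akap10 366.4 and 405.5. The neuronal RGS genes Rgs6, Rgs7 and Rgs8 were below the floor on both arrays, with signals from 2.3 to 9.3, as were the single probe set of Rgs22, the 5 probe sets of Rgs17 and both of Rgs4. Rgs9, another neuronal member, had 14.8 in NKR-P1B+ cells and 24 in Ly49s3+ cells on 1 probe set, just above the floor in the latter, and 15.4 and 10.1 on the other.

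The substrates of RGS proteins, the G protein alpha subunits, were measured for 6 of 14 genes on the array. Gnai2, the main Gi subunit of lymphocytes, had 317.6 in NKR-P1B+ cells and 237.8 in Ly49s3+ cells, and Gnas, which stimulates adenylyl cyclase, 760.3 and 939.4. Gna15, a Gq-type subunit of blood cells, was at least 2.84-fold higher in NKR-P1B+ cells (57.9 against 14.9), and Gna12 1.54-fold (73.8 against 47.8). Those were the 2 alpha subunits past 1.5-fold, and the share of all measured genes past it toward NKR-P1B+ cells was 5.11%. Gna15 was above the floor only in NKR-P1B+ cells, which fixed its direction, and the other probe set of Gna12 was at the floor on both arrays. The count was 0 with a floor at the 65th percentile and 3 with poly-A scaling. It was 1 with log2 of the value plus 32 and 1 with the mean over probe sets. The 12 measured beta and gamma subunits were all within 1.5-fold, with a median of −0.02. Gnb1 had 1253.6 and 1313.

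Upstream, 19 of 41 receptor genes on the array were measured, of which 5 were at least 1.5-fold higher in NKR-P1B+ cells and 2 in Ly49s3+ cells, with a median of 0.14. The shares over all measured genes were 5.11% and 5.73%. The receptor counts were 10 and 1 with poly-A scaling, and 2 and 1 with a floor at the 65th percentile. The lysophosphatidic acid receptor gene Lpar1 (216.2 against 36.3) and the chemokine receptor genes Ccr2 (60.3 against 13.2) and Ccr6 (330.7 against 162.2) had the largest differences toward NKR-P1B+ cells. Toward Ly49s3+ cells these were Ccr10 (11.9 against 39.4) and S1pr1, which guides lymphocytes out of tissue (821.5 against 1355.8), whose log2 difference of −0.72 became −0.23 with poly-A scaling. The other probe set of S1pr1 was at the floor on both arrays and gives no difference. Ccr2, Ccr10 and Ptger2 (33.1 against 17.1), another of the 5, were below the floor on the array where they were lower. That fixed their direction. The chemokine receptor gene Cxcr4 had 3714.6 and 3376.9. Among 13 measured genes of receptor desensitisation only the arrestin-domain gene Arrdc2 passed 1.5-fold toward NKR-P1B+ cells, at 425 in these and 208.6 in Ly49s3+ cells, and 6 of them passed it in that direction with poly-A scaling. Grk6, a receptor kinase of lymphocytes, had 2881.8 and 3048.6.

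Downstream, 3 of 20 measured cAMP pathway genes and 3 of 18 measured phospholipase C, PI3K gamma and other effector genes were at least 1.5-fold higher in Ly49s3+ cells. The share over all measured genes was 5.73%. None of either list was at least 1.5-fold higher in NKR-P1B+ cells on the deposited scale. With poly-A scaling 5 and 6 of them were higher in NKR-P1B+ cells by that fold, and 2 and 1 in Ly49s3+ cells. The counts toward Ly49s3+ cells were 1 and 0 with a floor at the 65th percentile, and 3 and 1 with log2 of the value plus 32. The cAMP genes were the adenylyl cyclase gene Adcy3 (17 against 53.2), the protein kinase A subunit gene Prkar2b (37.3 against 84.5) and the phosphodiesterase gene Pde8a (9.7 against 32.4). The others were the phospholipase C gene Plcb2 (19.5 against 59.5), the protein kinase C gene Prkca (43.5 against 73.5) and Arhgef12 (28.8 against 46). These 6 genes had low signals, and 3 of them (Adcy3, Pde8a and Plcb2) were above the floor only in Ly49s3+ cells, which fixed their direction. The other probe sets of Pde8a and Arhgef12 were at the floor on both arrays, and each list's count was 2 with the mean over probe sets. Median log2 differences of the 7 lists ran from −0.02 to 0.20 on the deposited scale, beside −0.02 over all genes, and from 0.40 to 0.91 with poly-A scaling, beside 0.46.

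**Figure D3:**
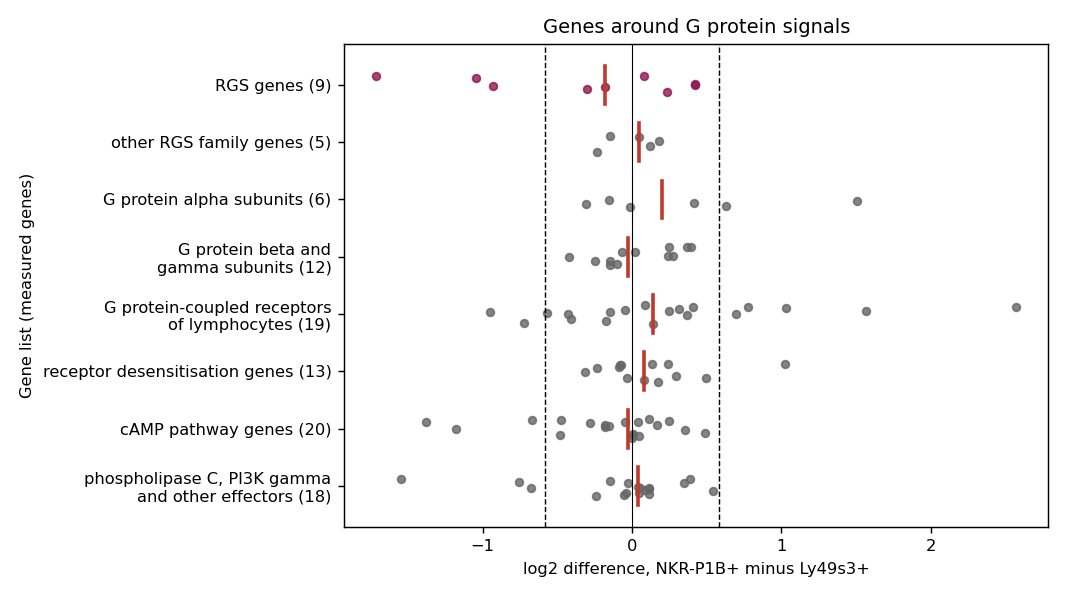
log2 difference (NKR-P1B+ minus Ly49s3+, deposited scale) of each measured RGS gene and each measured gene of 7 lists around G protein signals, with list medians as red bars and dashed lines at 1.5-fold. The RGS genes reach −1.71 (Rgs16) and no further than 0.42 the other way, and the beta and gamma subunits all lie within the dashed lines; with poly-A scaling all list medians are above 0.

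Markers of other cell types differed between the arrays as well, and each sum below is over the markers on the array. Macrophage and monocyte markers summed to 442.7 in NKR-P1B+ cells and 227.7 in Ly49s3+ cells (2 of 12 markers above the floor, with Cd68, Cd14 and Csf1r below it), and B cell markers to 211.3 and 136.5 (3 of 9, with Ms4a1 and Cd79b below it). The measured markers of both lists were all higher in NKR-P1B+ cells, as Rgs1, Rgs2, Rgs3 and Rgs19 were, and their part in those differences was not tested. Among these markers, Hmox1 (26.8 against 17.4) and Blnk (26.1 against 0.9) were above the floor only in NKR-P1B+ cells, which fixed their direction. Other lists had markers on both sides. Antigen-presenting cell markers summed to 2955 and 2089.7 (7 of 10, with Flt3 and Clec9a below the floor), mostly through Itgax (2281.2 against 1716.4). Of these, 5 were higher in NKR-P1B+ cells, RT1-Da (345.8 against 97.7) among them, but RT1-Bb and RT1-Db1 were above the floor only there. Batf3 (4.2 against 83.2) and RT1-Ba (30.2 against 36.7) were higher in Ly49s3+ cells, Batf3 being above the floor only there. The floor thus fixed the direction of RT1-Bb, RT1-Db1 and Batf3. The other probe sets of RT1-Ba had log2 differences of 0.19, 0.29 and 0.01. T cell markers summed to 3262.4 and 1992.8 (8 of 11, with Cd3e, Cd3d and Cd8b below the floor), with 4 higher on each side and a median log2 difference of 0.08. Cd8a (2151.1 against 767.4) carried that sum, while Trat1 (86.2 against 346.3) and Cd3g (22.3 against 42.9) were higher in Ly49s3+ cells. Cd4 (3.3 against 20.6) was above the floor only in Ly49s3+ cells, which fixed its direction. Whether the signals of Cd8a and Itgax came from other cells or from the NK cells themselves was not tested. Erythroid markers summed to 379.3 and 361.2 (4 of 8, with Alas2 and Klf1 below the floor). Hbb (276.3 against 152.8) was higher in NKR-P1B+ cells, and the other 3, Hemgn (50.6 against 131.1) among them, in Ly49s3+ cells. Slc4a1 (9.9 against 21.7) and Epor (15.5 against 35.8) were above the floor only in Ly49s3+ cells, which fixed their direction. Stromal markers summed to 162.8 and 193.6, and of 7 neutrophil and mast cell markers 1 (Cpa3, 10 against 21) was above the floor. The part of any of these markers in the differences of the RGS genes was not tested.

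**Figure D4:**
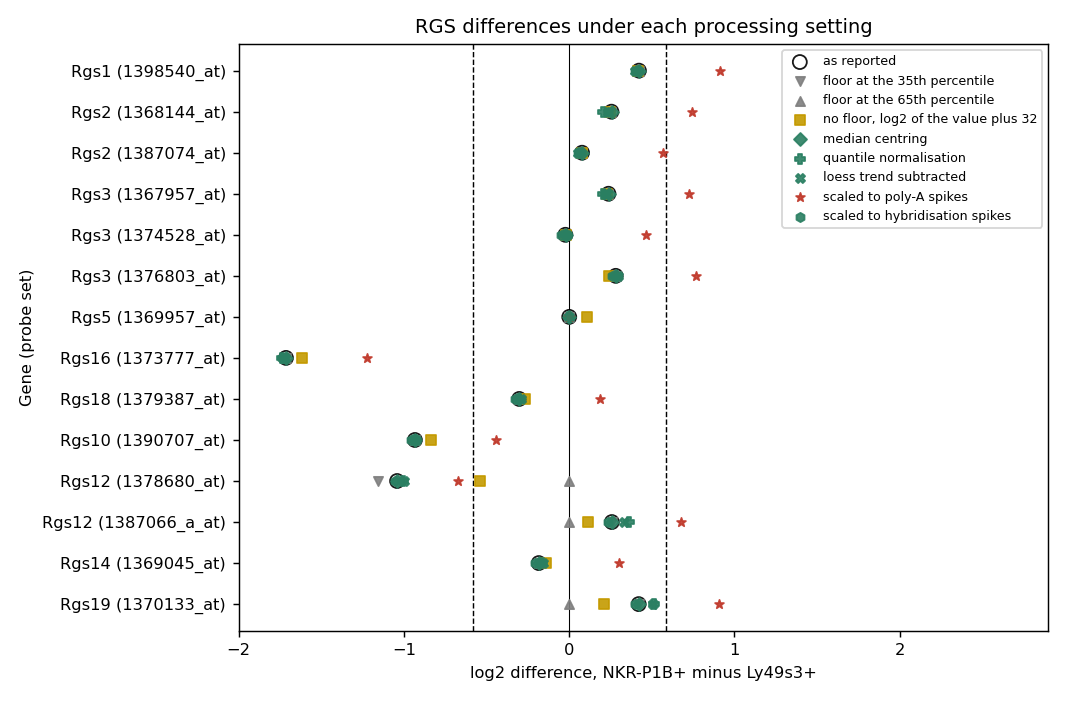
log2 difference (NKR-P1B+ minus Ly49s3+) of the 14 RGS probe sets as reported (open circles) and under 8 other settings (filled symbols), with dashed lines at 1.5-fold. Scaling to the poly-A spikes (red stars) moved each probe set above the floor to the right, and with it Rgs16 stayed at −1.23 and Rgs10 at −0.45 while Rgs14, Rgs18 and 1 probe set of Rgs3 turned from below 0 to above it.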

How the data were processed

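Total RNA of sorted splenic NK cells was extracted with Tri Reagent, and biotin-labelled cRNA from 3 ug of it was hybridised, with 1 Affymetrix rat array for each population, per the labels' protocols. The authors deposited linear intensity values that MAS5 produced, per the submitters' processing notes, and neither a version nor a scaling target nor detection calls are recorded in these sources. Actin control signal at the 3′ end was 11.9 times that at the 5′ end in NKR-P1B+ cells and 13.2 times in Ly49s3+ cells. For GAPDH the ratios were 2.84 and 2.77 in the same order. The effect of these ratios on the members was not tested. Precision is limited by the number of arrays.

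The platform annotation gave the names of probe sets: 20832 had 1 symbol, 436 several and 9831 none. The 10 members' symbols matched RefSeq's GRCr8 table by gene number. Signals under the 50th percentile of both arrays without controls were raised to it, and log2 was taken. Each gene took its probe set of highest mean log2 signal, and counted as measured where either array exceeded the floor. Differences are NKR-P1B+ minus Ly49s3+, and 1 array per group allows no p-value. Precision was taken from the disagreement of the 2 brightest probe sets of 1993 genes, as the root mean square of their difference divided by the square root of 2. Other settings were floors at the 35th and 65th percentiles, log2 of the value plus 32, median centring, quantile normalisation, a loess trend (span 0.3), scaling to poly-A or hybridisation spikes, the mean over probe sets and a fold of 2.

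The members, the gene lists and the settings were chosen with earlier results of these data known. Named were all members, up to 3 list genes per direction at least 1.5-fold apart, and the 2 brightest genes of each list. Other genes were named after their values were seen. These were Rgs4, Rgs6, Rgs7, Rgs8, Rgs9, Rgs17 and Rgs22, Ptger2, Treml1, Blnk, Batf3, RT1-Ba, RT1-Bb, RT1-Db1, Trat1, Cd3g, Cd4, Slc4a1 and Epor and the marker genes below the floor. Of the brightest list genes only some are given. The calculation was tested on simulated data, in which all 200 genes given a known change out of 8686 were recovered. Python 3.11.15, pandas 2.3.3 and statsmodels 0.14.6 were used.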

Additional observations from a re-analysis of the deposited data

How the results depend on the processing

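The counts of RGS genes past the fold in Ly49s3+ cells were 2 or 3 under all 10 other settings, but the genes counted changed. Rgs16 passed in each. Rgs10 fell short with poly-A scaling (1.36-fold) and at a fold of 2 (1.91-fold). The other gene counted in those settings was Rgs12, which lies near the floor. None passed the fold in NKR-P1B+ cells except with poly-A scaling, which gave 3 and moved the members' median to 0.30. This scaling also gave 107 genes higher in Ly49s3+ cells and 3004 in NKR-P1B+ cells in place of 522 and 466. A floor at the 35th percentile gave 1097 and 772, a floor at the 65th percentile 246 and 277, log2 of the value plus 32 gave 227 and 276, and a fold of 2 gave 110 and 162. Why the poly-A spikes differ between the arrays was not tested. Signal near the floor limits Rgs12 and Rgs19, and the single array per population limits every difference. No paired analysis was possible because each population has 1 array and the labels give no replicate numbers. Leaving out a replicate was not possible for the same reason.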

Other observations

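Of the 10 RGS genes, 5 (Rgs1, Rgs2, Rgs5, Rgs16 and Rgs18) lie on rat chromosome 13 in the GRCr8 assembly, whose annotation was used for the order of protein-coding genes only. Rgs2, Rgs13, Rgs1, Rgs21 and Rgs18 follow each other there, and Rgs13 and Rgs21 are not analysed here. Within this run Rgs1 was 1.34-fold higher in NKR-P1B+ cells and Rgs18 1.23-fold higher in Ly49s3+ cells, the latter turning with poly-A scaling. Uchl5, a deubiquitinase gene on the other side of Rgs2, had 374.3 in NKR-P1B+ cells and 403.8 in Ly49s3+ cells. Rgs8, the neighbour of Rgs16, had 7.3 and 9.3, below the floor on both arrays, where Rgs16 had 316 and 1036.9. Next to Rgs10, the RNA-binding protein gene Tial1 had 834.6 and 965.1, a log2 difference of −0.21 beside −0.93 for Rgs10, and the globin chaperone gene Ahsp on its other side had 2.5 and 8. Nuf2, a kinetochore gene beside Rgs5, had 83.1 and 135.1.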
